A study of Homo sapiens with 6 samples.

Results

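The class II major histocompatibility complex (MHC) genes HLA-DRA, HLA-DMA, HLA-DMB, HLA-DPA1 and HLA-DPB1, the invariant chain CD74 and the transactivator CIITA were followed in MV4;11 cells after 3 h of cortistatin A. These 7 genes were listed by name, and all 7 were measured, out of 19775 genes on the arrays. They were covered by 15 probe sets that name only 1 of them, out of 41091 probe sets with a single gene. MV4;11 is an established human line of acute myeloid leukaemia that carries the MLL-AF4 fusion. The control group of 3 arrays received the solvent DMSO for 3 h, and the treated group of 3 arrays received 25 nM of CA, short for cortistatin A, for the same time. Both groups share the line, its fusion and the culture medium with serum. The compound, a sponge-derived steroid alkaloid, blocks the Mediator kinases CDK8 and CDK19. All results are from 1 cell line, and the labels describe wells plated in triplicate without saying that these were separate cultures, so each p-value covers only the spread between these 6 samples and that spread may be technical.

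Class II molecules are pairs of an alpha and a beta chain that present peptides from endosomes to CD4 T cells. In the endoplasmic reticulum they bind the invariant chain CD74, which blocks the groove and directs them to endosomes, and HLA-DM (a pair of HLA-DMA and HLA-DMB) later exchanges the remaining CD74 fragment for antigen peptides. Their genes share promoter elements called the X and Y boxes, bound by RFX, CREB and NF-Y, and CIITA, which does not itself bind DNA, sits on these factors and switches the family on in antigen-presenting cells and after interferon-gamma. Monocytic leukaemia cells often carry class II on their surface.

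The values were deposited log2 values made with RMA, which subtracts background, makes the arrays alike and summarises the probes of each probe set. Where a gene had several probe sets, the one brightest on average across the 6 arrays stood for it. Correlations between arrays across genes were 0.9975 to 0.9979 within groups and 0.9969 to 0.9974 between groups. With limma, at an adjusted p under 0.05, 115 of 19775 genes were called (0.582%), 88 higher and 27 lower after cortistatin A. Housekeeping centring gave 144 higher and 17 lower. Leaving out any 1 array took most calls away: limma called 4 genes without DMSO replicate 3, 3 without cortistatin A replicate 2, and 0 without each of the other 4 arrays, where 1952 (without DMSO replicate 1), 2342 (DMSO replicate 2), 2137 (treated replicate 1) and 2312 (treated replicate 3) genes had an unadjusted p under 0.05. For beta-actin, one of the control transcripts with probes at both ends, the log2 signal at the 3' end minus that at the 5' end was 1.77, 1.69 and 1.79 in DMSO and 1.88, 1.89 and 2.08 in cortistatin A. These groups were apart (exact permutation p = 0.1, two-sided, which is the minimum for this design). For the GAPDH control the groups overlapped (exact permutation p = 0.3).

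None of the 7 genes passed the test after 3 h of cortistatin A (0 of 7, limma adjusted p from 0.208 to 0.850, against 0.582% of all genes, or 0.445% in the higher direction). Before adjustment, 3 of the 7 had a limma p under 0.05, all higher, beside 6.81% of all genes. Every point estimate lay above 0, between 0.04 and 0.23 on the log2 scale, with a median of 0.10 beside 0.01 over all genes. That median was 0.16 with housekeeping centring, where all genes stood at 0.06, and 0.05 with the mean of the probe sets of each gene. Of all genes 52.4% lay above 0 (51.5% of the genes above the median of all values). In 3 of the 7 genes, HLA-DPA1, HLA-DPB1 and HLA-DMB, all cortistatin A arrays lay above all DMSO arrays, as they did in 10.2% of all genes (19.4% had groups apart in either direction) and in 12.8% of the 12622 genes whose mean exceeded the median of all values. The 95% intervals of limma, not adjusted for the number of genes, ran for the 7 genes from 0.919-fold to 1.30-fold at the widest, so a 1.5-fold change lay outside each of them on this scale. RMA compresses changes of dim probe sets, and in bulk RNA fewer cells expressing a gene cannot be told apart from less RNA per cell.

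**Figure D1:**
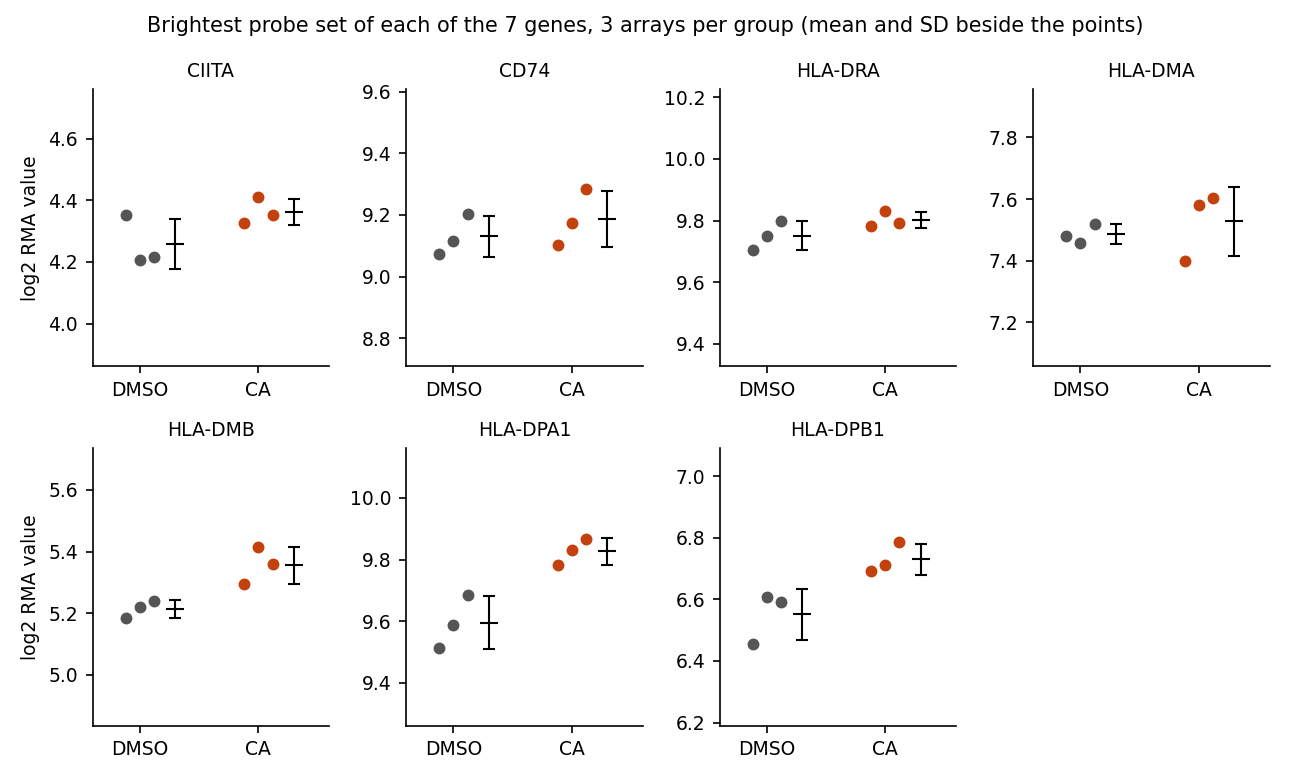
Deposited log2 RMA values (vertical axis, the same span of values in each panel) of the brightest probe set of the 7 genes in 3 DMSO arrays (grey) and 3 cortistatin A arrays (CA, orange), with the mean and SD of each group beside its points. The groups are apart for HLA-DMB, HLA-DPA1 and HLA-DPB1 and overlap for CIITA, CD74, HLA-DRA and HLA-DMA.

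HLA-DPA1 and HLA-DPB1 encode the alpha and beta chains of HLA-DP, a classical class II molecule. HLA-DPA1 stood at 9.51, 9.59 and 9.68 on the log2 scale in DMSO and at 9.78, 9.83 and 9.87 in cortistatin A. The lowest treated array lay above the highest control array. The difference was 0.23 ± 0.06 (limma standard error, n = 3 arrays per group), or 1.17-fold with an interval from 1.06 to 1.30, and it did not pass over all genes (limma adjusted p = 0.208). Over its 14 alternatives the limma adjusted p was 0.00534 to 0.698, and it passed only with trend and robust variances, where 762 genes were called. HLA-DPB1 stood at 6.45, 6.61 and 6.59 in DMSO and at 6.69, 6.71 and 6.79 in cortistatin A, again without overlap. Its difference was 0.18 ± 0.06 (limma adjusted p = 0.304), or 1.13-fold with an interval from 1.02 to 1.25. The mean of both its probe sets, one of them dim, gave 0.03 (limma adjusted p = 0.949), and the dim one alone -0.12.

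HLA-DPA1 was covered by 3 probe sets, and in each of them the groups did not overlap. Of the 12 probe sets of the 7 genes that lay above the median of all values, 5 had all treated arrays above all control arrays, beside 10.5% of all probe sets above it. The probe set 211991_s_at gave 7.49, 7.45 and 7.56 in DMSO against 7.60, 7.65 and 7.65 in cortistatin A, a difference of 0.13 ± 0.06. The dimmer 213537_at gave 4.64, 4.37 and 4.59 against 4.66, 4.89 and 4.77, a difference of 0.24 ± 0.10. These probe sets read 1 transcript in the same 6 RNA samples, so they are repeats of a measurement and not further replicates. When all probe sets were tested limma called 28 of 54613 (0.0513%), and 0 of the 15 probe sets of the 7 genes. The second probe set of HLA-DPB1, 244485_at, was near the floor of the arrays, with 2.46, 2.77 and 1.98 in DMSO and 2.45, 2.30 and 2.09 in cortistatin A, and its groups overlapped.

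HLA-DMA and HLA-DMB encode the alpha and beta chains of the peptide exchanger HLA-DM. HLA-DMB stood at 5.18, 5.22 and 5.24 in DMSO and at 5.29, 5.41 and 5.36 in cortistatin A. The groups did not overlap, and the difference was 0.14 ± 0.05 (limma adjusted p = 0.342), or 1.10-fold with an interval from 1.01 to 1.20. Its partner HLA-DMA stood at 7.48, 7.46 and 7.52 in DMSO and at 7.40, 7.58 and 7.60 in cortistatin A. Cortistatin A replicate 1 was the lowest of the 6 arrays and the other treated arrays were the highest, so the groups overlapped, with a difference of 0.04 ± 0.07 (limma adjusted p = 0.850).

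The promoter letters of the genes whose groups were apart, and of HLA-DMA as the partner of HLA-DMB, are shown because CIITA acts through them. They are RefSeq sequence of GRCh38.p14, the 250 bases before each annotated start, 5' to 3' on the strand of the gene. A RefSeq promoter entry was matched for 5 of the 7 genes, with 2 entries for HLA-DPA1. Capitals mark the full X box pattern, the X box core CCNAGNAAC, and the Y box core ATTGG, each searched on both strands, so that CCAAT is the Y box core on the other strand. The longer and the shorter X box patterns overlap where both match.
HLA-DPA1, first entry, chr6:33073650-33073899, minus strand: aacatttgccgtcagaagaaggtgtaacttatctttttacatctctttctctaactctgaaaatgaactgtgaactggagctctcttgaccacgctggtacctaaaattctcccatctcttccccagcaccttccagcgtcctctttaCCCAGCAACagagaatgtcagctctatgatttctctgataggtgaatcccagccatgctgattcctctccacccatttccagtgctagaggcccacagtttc
HLA-DPB1, chr6:33075740-33075989, plus strand: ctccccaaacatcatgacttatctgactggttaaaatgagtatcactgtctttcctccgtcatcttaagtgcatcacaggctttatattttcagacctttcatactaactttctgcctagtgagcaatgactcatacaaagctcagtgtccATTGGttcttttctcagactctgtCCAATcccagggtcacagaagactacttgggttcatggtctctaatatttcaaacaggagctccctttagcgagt
HLA-DMB, chr6:32941029-32941278, minus strand: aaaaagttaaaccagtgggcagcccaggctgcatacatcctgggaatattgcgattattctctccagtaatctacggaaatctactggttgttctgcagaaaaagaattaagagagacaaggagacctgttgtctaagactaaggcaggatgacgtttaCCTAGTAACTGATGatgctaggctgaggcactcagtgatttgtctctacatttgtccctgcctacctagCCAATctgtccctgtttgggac
HLA-DMA, chr6:32953098-32953347, minus strand: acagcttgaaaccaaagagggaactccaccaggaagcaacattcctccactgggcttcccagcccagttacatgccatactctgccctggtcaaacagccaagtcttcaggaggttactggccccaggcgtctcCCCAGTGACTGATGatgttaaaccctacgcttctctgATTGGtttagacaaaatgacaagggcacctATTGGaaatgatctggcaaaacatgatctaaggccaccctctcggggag
The longer X box pattern was found in HLA-DMA and HLA-DMB and in 0.232% of all 34943 promoters of that length. The shorter X box pattern was found in HLA-DPA1, HLA-DMB and CD74 and in 3.83% of all promoters. The Y box core was found in HLA-DPB1, HLA-DMB, HLA-DMA and CD74 and in 32.0% of all promoters. HLA-DPA1 and HLA-DPB1 lie on opposite strands, with the starts used here 2341 bases apart. The second HLA-DPA1 entry starts inside the annotated span of HLA-DPB1 and held no match to these patterns. A link between these letters and the changes was not tested. A match is a description of letters and no evidence of binding in these cells. Only these exact letters were searched, so a missing match is no evidence that a box is absent.

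HLA-DRA encodes the alpha chain of HLA-DR, the main class II molecule of the cell surface. It stood at 9.70, 9.75 and 9.80 in DMSO and at 9.78, 9.83 and 9.79 in cortistatin A. The groups overlapped, and the difference was 0.05 ± 0.05 (limma adjusted p = 0.730), with an interval from 0.954-fold to 1.13-fold. Its second probe set, 210982_s_at, gave 9.08, 9.13 and 9.07 against 9.04, 9.18 and 9.19, a difference of 0.04 ± 0.07. Against a median of 3.75 over all values, both probe sets were far from the floor of the arrays.

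CD74, the invariant chain, stood at 9.07, 9.12 and 9.20 in DMSO and at 9.10, 9.17 and 9.28 in cortistatin A. The groups overlapped, and the difference was 0.06 ± 0.07 (limma adjusted p = 0.790), or 1.04-fold. The probe sets 1567627_at and 1567628_at of CD74 were far dimmer, at means of 4.49 and 3.19 in DMSO, and gave differences of 0.03 ± 0.17 and -0.004 ± 0.107. With the 3' to 5' difference, averaged over beta-actin and GAPDH, as a covariate the values of CD74 and HLA-DMA turned to -0.08 and -0.07 (limma adjusted p = 0.845 and 0.881), and that of HLA-DPA1 was 0.16. The part of this control signal in the changes was not tested.

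CIITA, the transactivator of the family, was dim. Its brightest probe set stood at 4.35, 4.21 and 4.22 in DMSO and at 4.33, 4.41 and 4.35 in cortistatin A. DMSO replicate 1 lay among the treated arrays, so the groups overlapped. The difference was 0.10 ± 0.06 (limma adjusted p = 0.543), or 1.07-fold with an interval from 0.973 to 1.19. The other CIITA probe sets, 210925_at and 211884_s_at, stood at means of 3.87 and 3.67 in DMSO and gave 0.04 ± 0.12 and 0.09 ± 0.16. At such levels RMA values carry little of the change in RNA, so the interval of CIITA holds for the array signal.

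**Figure D2:**
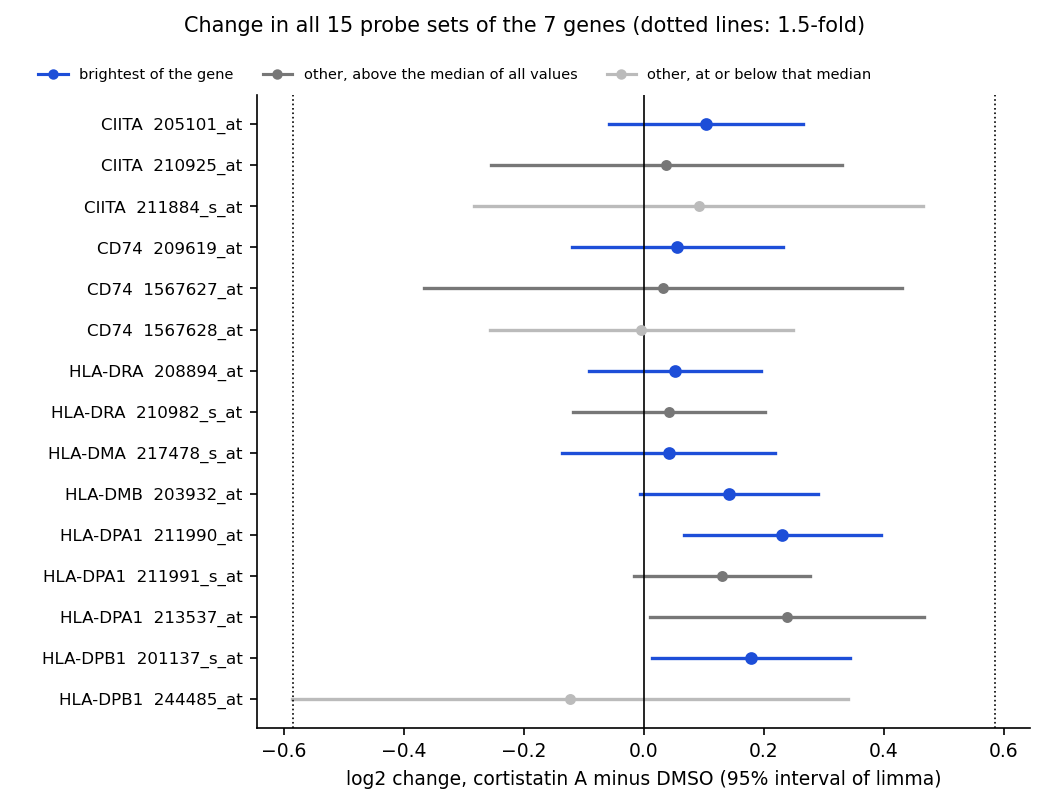
Log2 change (cortistatin A minus DMSO, horizontal axis) with its 95% limma interval for the 15 probe sets of the 7 genes, fitted with all probe sets of the arrays. Blue marks the brightest probe set of each gene, and dotted lines mark 1.5-fold. The 3 probe sets of HLA-DPA1 lie between 0.13 and 0.24, and the probe sets of HLA-DRA and CD74 lie near 0.

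Whether the HLA-DP and HLA-DM genes moved apart from HLA-DRA was asked within each array, by subtracting the HLA-DRA value from that of each other gene (6 comparisons, made after the values were seen). The difference between HLA-DPA1 and HLA-DRA was -0.19, -0.16 and -0.11 in DMSO and -0.001, -0.002 and 0.07 in cortistatin A. The groups were apart by 0.18 (exact permutation p = 0.1, two-sided, again the minimum, adjusted p = 0.2). HLA-DPB1 (shift 0.13) and HLA-DMB (shift 0.09) were apart in the same way, each at exact permutation p = 0.1 and adjusted p = 0.2. For CIITA, CD74 and HLA-DMA the groups overlapped, with shifts of 0.05, 0.004 and -0.01 (exact permutation p from 0.5 to 1). This permutation test cannot go below p = 0.1 with 3 against 3 arrays, whatever the values, so it does not settle whether the chains changed unequally.

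The other class II chains were not called either, 0 of 9 measured genes of 12 listed, with a median of 0.08. The 4 with the smallest p were HLA-DQB2 (0.11), HLA-DQA1 (0.12), the pseudogene HLA-DRB6 (0.16) and HLA-DRB1 (0.08), at limma adjusted p from 0.394 to 0.573. HLA-DRB1, the beta chain that pairs with HLA-DRA, stood at 9.91, 9.95 and 9.97 in DMSO and at 10.02, 9.99 and 10.05 in cortistatin A. These groups did not overlap, although the size was only 1.05-fold. HLA-DQA1 was just above the median of all values, with a DMSO mean of 3.95, and HLA-DQB2 was below it at 2.96. The DRB genes resemble each other closely, and some probe sets are annotated to both DRB and DQ chains. The DRB and DQ chains are also highly polymorphic, so single probe sets cannot assign their signal to 1 gene with certainty. The 6 probe sets annotated to several of these chains gave changes from 0.01 to 0.08, and 0 of 6 were called (smallest limma adjusted p = 0.717).

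Among the factors that bind class II promoters, 0 of 7 were called, with a median of -0.01 that was 0.05 with housekeeping centring. RFXAP, a subunit of RFX, had the smallest p of the list. It stood at 6.99, 7.02 and 6.93 in DMSO and at 7.34, 7.25 and 7.51 in cortistatin A, and its groups did not overlap. The difference was 0.39 ± 0.08, or 1.31-fold (limma adjusted p = 0.109, and 0.00252 to 0.565 over its 14 alternatives), and the mean of its probe sets gave 0.16. The other RFX subunits were RFX5 at -0.13, with all treated arrays below all control arrays, and RFXANK at 0.08 with overlapping groups. NFYA, a subunit of NF-Y, was at -0.13, also with all treated arrays below. The limma adjusted p of RFX5, RFXANK and NFYA ranged from 0.370 to 0.659.

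Of 13 measured genes that regulate CIITA transcription or signal from the interferon-gamma receptor, 1 was called higher and 0 lower (median 0.04 beside 0.01 over all genes). The called gene was IRF8, an interferon regulatory factor of monocytes, dendritic cells and B cells. IRF8 was at 11.34, 11.29 and 11.23 in DMSO and at 11.77, 11.71 and 11.78 in cortistatin A, and rose by 0.47 ± 0.05 (limma adjusted p = 0.0248). Its call ended when any 1 of the 6 arrays was left out (limma adjusted p from 0.0960 to 0.138), with changes of 0.44 to 0.50. The call also ended with the control signal as a covariate, where the change was 0.46 ± 0.10 (limma adjusted p = 0.421). Over its 14 alternatives the limma adjusted p was 4.8e-07 to 0.421. IRF4, its closest relative, was at 7.85, 7.71 and 7.84 in DMSO and at 8.23, 8.22 and 8.16 in cortistatin A. The difference of 0.40 ± 0.06, or 1.32-fold, missed the threshold (limma adjusted p = 0.0541). The mean of the IRF4 probe sets gave 0.12 (limma adjusted p = 0.546), while IRF4 passed with dim genes left out (0.0157), with housekeeping centring (0.0379) and with trend and robust variances (0.000195). JAK1, a kinase of the interferon-gamma receptor, was at -0.14, and IFNGR1, the ligand-binding chain of that receptor, at 0.14 (limma adjusted p = 0.312 and 0.352). For IFNGR1 the sign turned with the mean of its probe sets (-0.05). CIITA itself was at 0.10 on the same arrays.

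**Figure D3:**
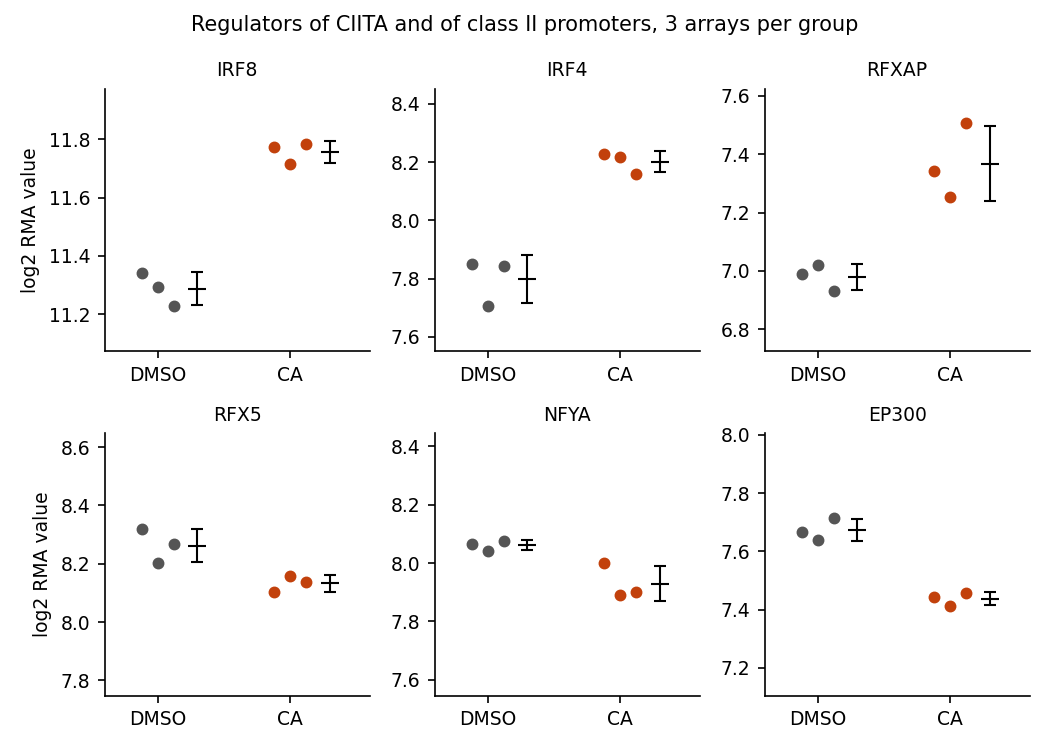
Deposited log2 RMA values (vertical axis, the same span in each panel) of 6 regulators in 3 DMSO arrays (grey) and 3 cortistatin A arrays (CA, orange), with the mean and SD of each group. All treated arrays lie above all control arrays for IRF8, IRF4 and RFXAP and below them for RFX5, NFYA and EP300, and IRF8 alone of these passed the test. The 6 were picked from the smallest p of their lists, which favours groups that are apart. Treated arrays lay all above in 1 of 7 promoter factors, 5 of 13 CIITA regulators and 0 of 9 cofactors. They lay all below in 2, 1 and 2 of these. Of all genes 19.4% had groups apart in either direction.

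The listed cofactors of CIITA, with acetyltransferases and the deacetylases HDAC1 and HDAC2 among them, were not called (0 of 9). Their median was -0.02, and 0.03 with housekeeping centring. The acetyltransferase EP300 was at 7.67, 7.64 and 7.71 in DMSO and at 7.44, 7.41 and 7.46 in cortistatin A, without overlap, a difference of -0.23 ± 0.05 (limma adjusted p = 0.131). EP300 passed with dim genes left out (limma adjusted p = 0.0382) and with trend and robust variances (0.00954). Its relative CREBBP was at -0.17 (limma adjusted p = 0.267), and the groups did not overlap. The mean of the CREBBP probe sets gave 0.005.

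Genes for antigen proteolysis, invariant chain processing and class II turnover were not called (0 of 14, median -0.04). CTSS, the protease that trims the invariant chain, was at -0.12, and CST3, an inhibitor of such proteases, at -0.09 (limma adjusted p = 0.548 and 0.589). For CTSS and for CST3 all treated arrays lay below all control arrays. CTSS was at -0.05 without cortistatin A replicate 3, and CST3 at -0.04 without cortistatin A replicate 1. Class I presentation genes were likewise not called (0 of 18, median -0.03). NLRC5, the class I relative of CIITA, was at 4.91, 4.80 and 4.70 in DMSO and at 4.94, 5.02 and 4.92 in cortistatin A, a difference of 0.16 ± 0.07 (limma adjusted p = 0.413). The class I heavy chains HLA-F and HLA-E were at -0.10 and -0.08 and the chaperone CANX at -0.09, and the groups overlapped for HLA-F. In 6 of the 18 class I genes all treated arrays lay below all control arrays, and in 1, NLRC5, above them. Among the 6 were HLA-B, HLA-C, HLA-E and HLA-G, read by probe sets of the _x_at type. Their signal cannot be assigned to 1 gene with certainty, so these are not separate observations. Of all genes 19.4% had groups apart in either direction, with 10.2% having all treated arrays above. Costimulatory genes were not called (0 of 10, median -0.03), with CD83 at -0.08 and CD80 at 0.11. For CD83 all treated arrays lay below all control arrays. CD80 was below the median of all values, with a DMSO mean of 3.07, and its groups overlapped. The medians of these lists turned to 0.01, 0.02 and 0.02 with housekeeping centring, which moved the median of all genes by 0.05. The difference between the class II genes and these lists was not tested.

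**Figure D4:**
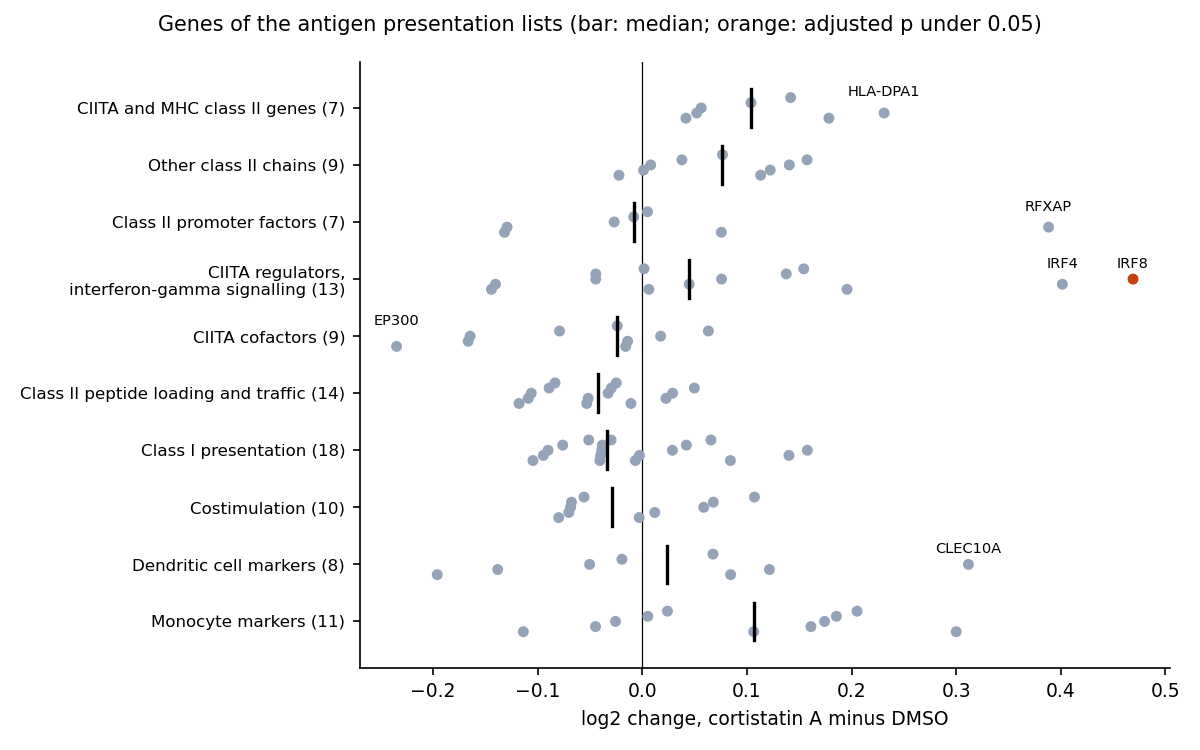
Log2 change (cortistatin A minus DMSO, horizontal axis) of every measured gene in lists around antigen presentation, with the number of genes in brackets and the list median as a bar. IRF8, in orange, is the only gene of these lists with a limma adjusted p under 0.05, and the medians lie between -0.04 and 0.11.

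The labelled cell type was checked against its markers. LYZ, a monocyte product, stood at a mean of 12.4 in DMSO, and the leukaemia genes MYB, FLT3 and MEIS1 at 11.4, 9.65 and 8.62. The monocyte marker CD14 was near the floor at 2.74. Of the monocyte list 8 of the 11 measured genes lay above the median of all values (3.75). FCN1 (2.75) and FCGR1A (3.02) lay below it with CD14, and ITGAX and ITGAM were at 4.38 and 5.12. Of the leukaemia list 5 of 8 genes were measured, all above that median, with SPI1 the lowest at 4.36. Of the other cells that carry class II, the B cell list (7 of 8 genes measured) had a mean level over its genes of 3.94 to 4.03 in control arrays and 3.93 to 4.12 in treated arrays, and its DMSO means ran from 2.79 (MS4A1) to 5.10 (CD79A). The dendritic list (8 of 9) had a mean level of 4.23 to 4.33 in control arrays and 4.25 to 4.32 in treated arrays, and its DMSO means ran from 1.72 (LAMP3) to 9.65 (FLT3), with CLEC10A at 7.32, CD1C at 4.49, FCER1A at 3.53, CD1A at 2.75, XCR1 at 2.70 and CCR7 at 1.98. Of that list CLEC10A, a lectin of macrophages and dendritic cells, was at 0.31 (limma adjusted p = 0.175), and at 0.14 with the control signal as a covariate. FLT3, a receptor kinase of blood progenitors that is also on that list, was at -0.20 (limma adjusted p = 0.196). The groups were apart for both, in opposite directions. The T and NK list (8 of 8) had a mean level of 3.43 to 3.54 in control arrays and 3.46 to 3.49 in treated arrays, and the erythroid and megakaryocyte list (6 of 9) 4.06 to 4.07 and 3.94 to 4.19. The monocyte list (11 of 13) did not overlap, at 5.79 to 5.81 in control arrays and 5.85 to 5.94 in treated arrays, with a median change of 0.11 and 0 genes called. FCGR2A, an Fc receptor, had the smallest p of the monocyte list, at 0.21 (limma adjusted p = 0.179). With the mean of the probe sets of each gene FCGR2A was at 0.04 (limma adjusted p = 0.869) and the median of the list at 0.04. The part of this difference in the class II values was not tested. The leukaemia list had a median change of 0.10, like the 7 genes, with 0 genes called. That median was 0.04 with the mean of the probe sets of each gene. The mean level of this list was barely apart, at 8.2367 to 8.3203 in control arrays and 8.3204 to 8.3303 in treated arrays. Mean levels did not overlap either for the 7 genes (7.39 to 7.46 against 7.48 to 7.58) and the CIITA regulators (7.18 to 7.23 against 7.28 to 7.30). MEIS1 (0.18) and MYB (0.15) had all treated arrays above all control arrays, while FLT3 had them below.

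Genes whose values over the 6 arrays were most like those of CIITA, by Pearson correlation among 12615 other genes above the median, were GALM, CBX6, S1PR3, ABCA3 and ZNF114 (r from 0.976 to 0.993). Their changes were 0.10 to 0.32, and 67 of the 12615 genes had r above 0.9. Those most like HLA-DPA1 were ZBTB24, RPL39L, EAF2, RREB1 and CEP250 (r from 0.990 to 0.999), with changes of 0.09 to 0.29, and 373 genes had r above 0.9. None of these 10 genes passed the test (smallest limma adjusted p = 0.168). With 6 arrays in 2 groups these values describe the arrays only.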

How the data were processed

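RNA of 6 MV4;11 samples was hybridised to Affymetrix U133 Plus arrays after a 3' labelling kit, per the labels' protocols, and was isolated with a column kit or TRIzol (the method per sample is not named there). The authors deposited 1 log2 value per probe set and array, made with RMA in the affy package per the submitters' processing notes. The table does not state its scale, and log2 was taken from the RMA step and from the range of 0.81 to 13.8. Array medians were 3.74 to 3.77. The number of arrays limits the precision. No genome build is named, and the promoters come from RefSeq.

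Of 54675 probe sets, 41091 named 1 gene in the platform annotation, 1801 several, 11721 none and 62 were controls. Symbols were updated through RefSeq gene identifiers for 41037. No 2 arrays shared over 678 identical values. The groups were fitted by lmFit and eBayes of limma 3.58.1 (R 4.3.3) without covariates, and two-sided p-values were adjusted by Benjamini-Hochberg over all 19775 genes. Fold changes and 95% intervals are from that fit, tested on simulated data. Single contrasts used exact permutation tests. Named were the 7 genes, every called gene and up to 4 genes with the smallest p of each list, the 5 most similar genes, and markers by level. The 7 genes, lists and alternatives were chosen with earlier results of these data known. Same-numbered replicates were checked for pairing: their deviations correlated at -0.05, 0.01 and 0.02. No pairing by these numbers was seen, and such values cannot exclude it.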

Additional observations from a re-analysis of the deposited data

How the results depend on the processing

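The 7 genes gave 0 calls in 13 of 14 alternatives. With trend and robust variances 1 was called, HLA-DPA1, also as 1 probe set of the 15. The values of CIITA, HLA-DRA, HLA-DMB and HLA-DPA1 stayed above 0 in all 14 alternatives. With the control signal as a covariate CD74 was at -0.080, HLA-DMA at -0.069, HLA-DRB6 at -0.054 and CTSS at 0.035. Without the _x_at and _s_at types, where HLA-DPB1 kept only its dim probe set and HLA-DMA none, HLA-DPB1 was at -0.12, IFNGR1 at -0.31 and HLA-F at 0.089. With the mean of all probe sets IFNGR1 was at -0.054, CREBBP at 0.0050 and CTSS at 0.00099. The number of genes called was 115, and 321 after dim genes were dropped, 76 for probe set means, 54 without the _x_at and _s_at types, 762 with trend and robust variances and 0 with the covariate (1805 at an unadjusted limma p under 0.05). With the replicate block limma called 0 genes (2243 at an unadjusted p under 0.05), 0 of the 7 and 0 genes of the other lists. No pairing by these numbers was seen, and none was excluded. Without single arrays the count was 0 to 4. Of the genes in the other lists 1 was called, and 4 with dim genes left out, 2 with housekeeping centring, 9 with trend and robust variances, 0 with the covariate and 0 to 0 without single arrays. The control signal differed by 0.13, and by 0.088 to 0.15 without single arrays. The causes of these moves were not tested, except that fewer genes or samples enter some fits.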
